A study of Mus musculus with 4 samples.

Results

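The 9 genes described here are transcription factor and signalling genes that are known for marking early-born neurons, among them the Cajal-Retzius cells. They comprise the EBF genes *Ebf1*, *Ebf2* and *Ebf3*, the LIM-homeodomain genes *Lhx1*, *Lhx5* and *Lhx9*, and *Reln*, *Calb2* and *Trp73*. They were taken by name from the 55602 genes of the deposited bulk and allele-specific count tables, after the gene identifiers had been matched to symbols. All 9 passed the filter on low counts, which left 19995 genes for testing. RNA was measured in 4 libraries labelled as neural precursor cells. The cells were derived from the mouse embryonic stem cell line JB1, a male F1 hybrid of a JF1 mother and a C57BL/6 (B6) father. There were 2 wild-type (WT) libraries and 2 libraries of a *Zfp57*-/- line that was made from JB1. Each genotype was therefore a single cell line, and the spread given below is that between cultures of a line. All cells were kept as stem cells with 3 µM CHIR99021, a Gsk3 inhibitor, then differentiated in a defined medium with 1 µM cyclopamine, an inhibitor of Hedgehog signalling, from day 2 to day 10, and collected at day 12. The study's authors described the *Zfp57*-/- cells as only partially differentiated and called them neural precursor-like. ZFP57 is a zinc finger protein that keeps DNA methylation at imprinting control regions. The question asked of these genes is how their RNA levels and their allelic expression differed between the genotypes.

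Cajal-Retzius cells are among the earliest neurons of the developing cortex. They leave the borders of the pallium, such as the cortical hem, settle under the surface of the brain and secrete Reelin, the glycoprotein that guides the layering of later neurons. EBF factors are helix-loop-helix proteins that switch on in neurons as they leave the cell cycle, and LIM-homeodomain factors assign identities to neurons in many parts of the brain and spinal cord. None of these genes is particular to Cajal-Retzius cells, since EBF1 also acts in B cells, EBF2 in fat, LHX1 in kidney and early mesoderm, and LHX9 in the gonad.

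Bulk counts ranged from 7663520 to 10337082 per library. *Zfp57* itself had 392 and 249 counts in the WT and 158 and 144 in the *Zfp57*-/- libraries, and these counts cover the whole gene, including what the deletion leaves. Levels are given as CPM, which are counts scaled to a common library size with edgeR's TMM factors. The 12 pan-neuronal genes summed to 1874 and 2495 in the WT and to 311 and 258 in the *Zfp57*-/- libraries, with 11 of 12 lower, *Map2* (log2 fold change -4.23), *Tubb3* (-2.95) and *Nefl* (-2.37) among them. The 8 pluripotency genes summed to 65.6 and 141 in the WT and to 1305 and 1183 in the *Zfp57*-/- libraries, with 7 of 8 higher, among them *Pou5f1* (9.41), *Tdgf1* (10.96) and *Esrrb* (6.63), and *Nanog* at 0 in both WT libraries. The 8 neural progenitor genes summed to 1610 and 1884 CPM in the WT and 1120 and 1140 in the *Zfp57*-/- libraries, with 6 of 8 lower, *Nes* among them (-0.91), while *Vim* (-0.25) and *Sox2* (0.49) did not pass the test. In such bulk RNA, fewer cells of a type and less RNA per cell cannot be told apart.

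The label of the gene group was checked against markers of the forebrain and of Cajal-Retzius cells, named here after their values were seen. In the WT libraries, *Emx1*, which marks the dorsal cortex, had 3 and 7 counts, and *Tbr1*, which is made by Cajal-Retzius cells and early cortical neurons, had 15 and 8. *Trp73*, whose product p73 marks Cajal-Retzius cells of the hem, had 14 and 6. Other genes of these cells and of their source regions were well covered in the same libraries, such as *Nhlh2* (901 and 1240 counts), *Nr2f2* (820 and 636), *Rspo3* (542 and 526) and *Wnt3a* (200 and 189), but they are also used elsewhere in the nervous system. Since some markers were thus near 0 and others were not, the 9 genes are called the EBF, LIM and Reelin group below.

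Promoter sequences are shown for the genes that fell the most and, beside them, for the LIM gene that did not pass the test. RefSeq promoters (build GRCm38.p6, 250 bases before to 50 bases after a transcription start) were found for 6 of the 9 genes, while those of *Ebf2*, *Lhx5* and *Calb2* are not shown. The sequences of *Reln* (chr5:22344656-22344955, minus strand), *Ebf3* (chr7:137314396-137314695, minus strand), *Lhx9* (chr1:138842395-138842694, minus strand) and *Lhx1* (chr11:84525485-84525784, minus strand) are given 5′ to 3′, and capitals mark matches to CCCNNGGG, the palindromic core of the EBF recognition sequence, which reads the same on both strands.
Reln: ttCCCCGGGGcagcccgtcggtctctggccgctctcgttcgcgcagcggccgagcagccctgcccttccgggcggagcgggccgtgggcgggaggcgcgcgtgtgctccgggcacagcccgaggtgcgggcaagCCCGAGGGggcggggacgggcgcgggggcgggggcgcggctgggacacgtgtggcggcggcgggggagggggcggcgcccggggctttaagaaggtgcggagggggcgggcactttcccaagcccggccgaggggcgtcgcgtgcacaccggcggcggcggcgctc
Ebf3: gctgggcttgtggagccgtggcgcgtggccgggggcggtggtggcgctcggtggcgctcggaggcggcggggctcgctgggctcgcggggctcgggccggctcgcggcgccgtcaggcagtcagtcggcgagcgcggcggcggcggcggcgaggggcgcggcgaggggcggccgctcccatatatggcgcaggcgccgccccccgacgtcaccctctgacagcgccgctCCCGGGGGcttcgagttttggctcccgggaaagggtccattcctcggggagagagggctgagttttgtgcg
Lhx9: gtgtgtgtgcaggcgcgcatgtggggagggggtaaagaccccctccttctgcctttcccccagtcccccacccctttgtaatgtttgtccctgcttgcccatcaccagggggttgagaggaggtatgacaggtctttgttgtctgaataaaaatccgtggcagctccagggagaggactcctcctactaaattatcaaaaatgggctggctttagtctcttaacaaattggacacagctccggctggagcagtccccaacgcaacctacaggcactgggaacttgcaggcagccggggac
Lhx1: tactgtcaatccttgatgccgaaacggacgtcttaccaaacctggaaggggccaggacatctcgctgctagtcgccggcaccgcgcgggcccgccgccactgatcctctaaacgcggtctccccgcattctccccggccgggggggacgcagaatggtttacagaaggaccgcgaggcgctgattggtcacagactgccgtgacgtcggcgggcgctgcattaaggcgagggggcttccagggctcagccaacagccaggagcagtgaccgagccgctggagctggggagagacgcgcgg

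The *Reln* and *Ebf3* promoters were rich in CpG dinucleotides, with 47 and 46, and the *Lhx1* promoter had 31, against a median of 7 over 32851 mouse promoters of the same length. The *Lhx9* promoter found here, of a gene that fell as much as *Reln* did, had 6. It lies inside the gene, whose upstream end is at 138848577. For *Lhx9* 7 start sites are annotated, and its other starts were not examined. CCCNNGGG occurred at -248 and -116 relative to the start in *Reln* and at -21 in *Ebf3*, in no other of the 8 promoters of these genes, and in 13.7% of all promoters. TAATTA, a core bound by many homeodomain proteins, was found in none of the 8 and in 5.29% of all promoters, and it does not overlap the EBF core. Among the promoters found here for genes that fell, neither a CpG-rich start nor these letters were shared by all.

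**Figure D1:**
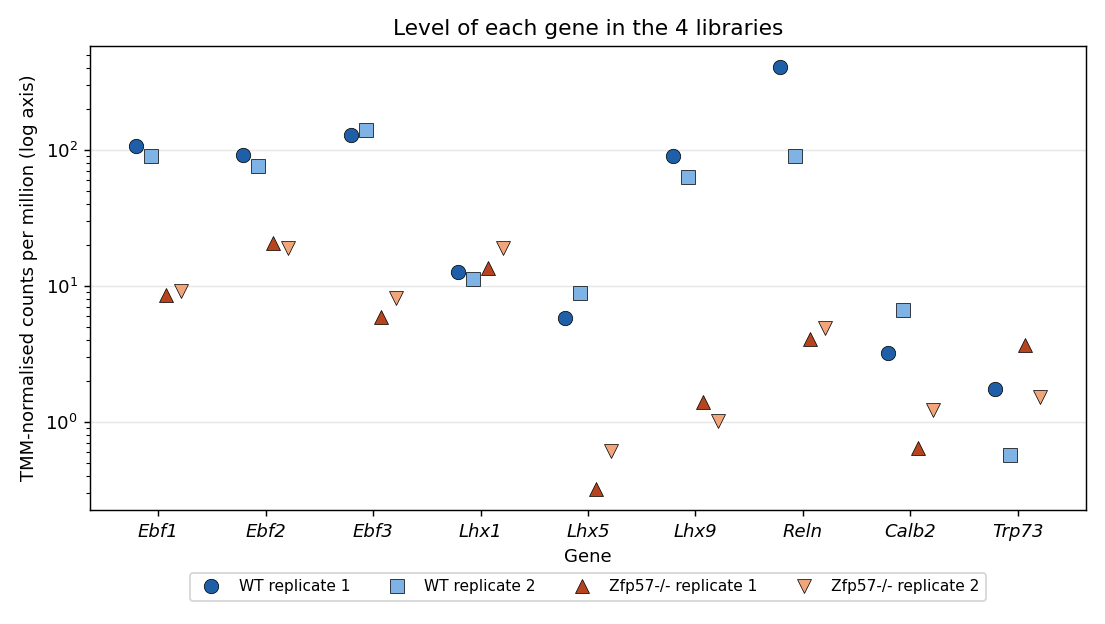
Levels of the 9 genes in each library, in TMM-normalised CPM on a log axis, with circles and squares for the 2 WT and triangles for the 2 *Zfp57*-/- libraries. Of the 9 genes, 7 were called lower in *Zfp57*-/- cells, against 14.6% of all genes tested, and *Lhx1* and *Trp73* did not pass the test. The WT points of *Reln* lie 4.50-fold apart.

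In the comparison of *Zfp57*-/- with WT cells, 7 of the 9 genes were lower and 0 were higher at an adjusted p of 0.05 (edgeR's quasi-likelihood test, Benjamini-Hochberg adjustment over all 19995 genes). Of all genes tested, 14.6% were lower and 13% higher. DESeq2 also gave 7 lower and 0 higher, and 0 were higher at an unadjusted p of 0.05 in edgeR. The median log2 fold change of the 9 genes was -3.47, and that of all genes was -0.01. With *Actb* as the scale, 7 were again lower, and over all genes, whose median shifted to -0.68, 2994 were lower and 486 higher, against 2915 and 2607 on the TMM scale.

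The EBF genes fell together, with *Ebf3* falling the most and *Ebf2* the least. *Ebf1* (ENSMUSG00000057098.14, GRCm38 chromosome 11, 44617317 to 45008091), which acts in neurons that are starting to differentiate and in B lymphocytes, had 858 and 947 counts in the WT and 80 and 89 in the *Zfp57*-/- libraries. Its level went from 98.3 ± 11.2 to 8.84 ± 0.36 CPM (SD, n = 2 each) (log2 fold change -3.47, standard error 0.22, edgeR adjusted p = 6.02e-06). The genotypes were far apart relative to the spread between cultures, and 8.99% of the WT level remained.

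*Ebf2* (ENSMUSG00000022053.13, chromosome 14, 67233292 to 67430918), a factor of brown fat and of migrating neurons, had 738 and 798 counts in the WT and 193 and 186 in the *Zfp57*-/- libraries. The change was -2.08 on the log2 scale (standard error 0.21, edgeR adjusted p = 8.45e-05), from 83.7 ± 10.7 to 19.8 ± 1.21 CPM (SD, n = 2 each). Of the 7 genes that fell it kept the largest share of its WT level, 23.7%, next to 19.1% for *Calb2*.

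*Ebf3* (ENSMUSG00000010476.14, chromosome 7, 137193673 to 137314445), which carries the CpG-rich promoter shown above, had 1043 and 1460 counts in the WT and 55 and 80 in the *Zfp57*-/- libraries. On the log2 scale it changed by -4.25 (standard error 0.24, edgeR adjusted p = 4e-06), from 134.2 ± 7.23 to 7.04 ± 1.61 CPM (SD, n = 2 each). In the WT libraries *Ebf3* was the highest EBF gene, and in the *Zfp57*-/- libraries it was below *Ebf2* in both.

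The 95% interval of the *Ebf2* change, -2.54 to -1.61, did not overlap those of *Ebf1* (-3.96 to -2.98) and *Ebf3* (-4.79 to -3.71). Ratios within a library do not depend on its scale. There were 116 and 119 *Ebf1* counts per 100 *Ebf2* counts in the WT libraries, against 41.5 and 47.8 in the *Zfp57*-/- libraries. *Ebf3* counts per 100 *Ebf2* counts were 141 and 183 in the WT, against 28.5 and 43.0 in the *Zfp57*-/- libraries. *Ebf3* counts per 100 *Ebf1* counts were 122 and 154 against 68.8 and 89.9. None of these ratios overlapped between genotypes, but with 2 libraries against 2 the exact permutation test (two-sided) cannot go below p = 0.333, which each of the 5 ratios examined within the EBF and LIM trios gave (0.333 after adjustment over the 5).

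Per kilobase of exon (RPKM, the TMM-normalised CPM divided by the gene's exonic length), the EBF trio summed to 38.1 and 35.3 in the WT and to 4.51 and 4.56 in the *Zfp57*-/- libraries. *Ebf2* made up 34.6% and 31.1% of that sum in the WT and 66.3% and 60.1% in the *Zfp57*-/- libraries, and *Ebf3* went from 36.8% and 42.7% to 14.2% and 19.4%. What remained of the trio in the *Zfp57*-/- cells was thus mostly *Ebf2*. The other EBF gene, *Ebf4*, which is not part of the group and was named after its values were seen, had 128 and 102 counts in the WT and 49 and 30 in the *Zfp57*-/- libraries.

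**Figure D2:**
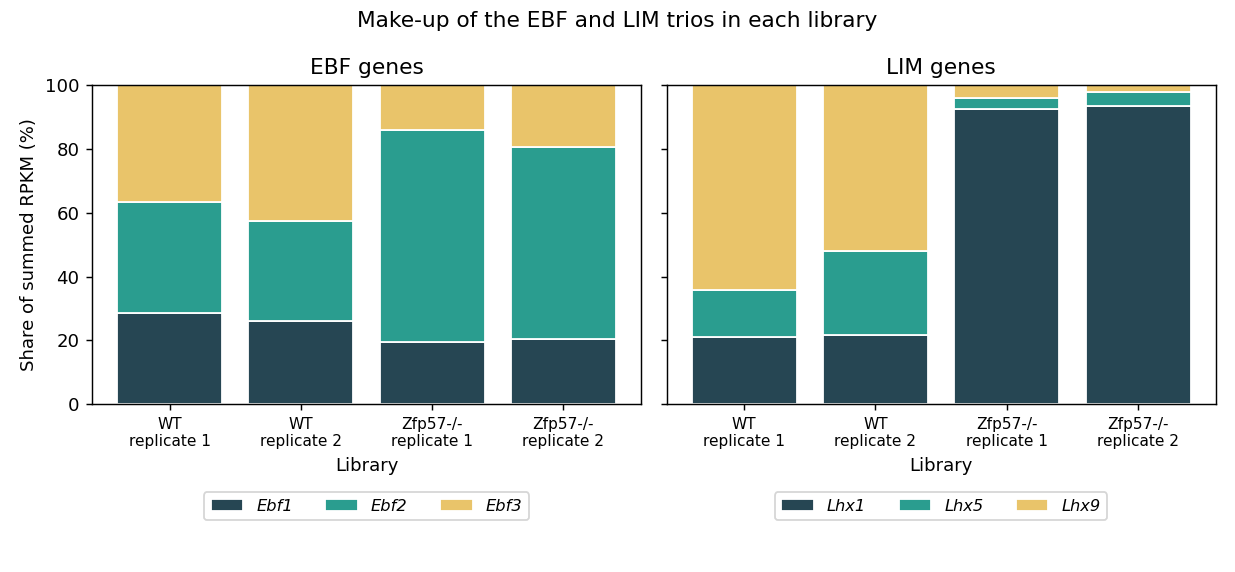
Share of each gene in the summed RPKM of the EBF trio (left) and the LIM trio (right), in percent, for the 4 libraries on the horizontal axis. *Ebf2* rises from at most 34.6% to at least 60.1% of the EBF sum, and *Lhx1* from at most 21.9% to at least 92.5% of the LIM sum.

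The LIM genes parted, since *Lhx9* and *Lhx5* fell and *Lhx1* did not pass the test. *Lhx9* (ENSMUSG00000019230.14, chromosome 1, 138825186 to 138848577), a factor of dorsal interneurons, the thalamus and the gonad, had 720 and 655 counts in the WT and 13 and 10 in the *Zfp57*-/- libraries. The log2 fold change, -5.96, was the largest of the 9 (standard error 0.32, edgeR adjusted p = 3.58e-06). The level went from 75.8 ± 18.8 to 1.21 ± 0.264 CPM (SD, n = 2 each), and 1.59% remained.

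*Lhx5* (ENSMUSG00000029595.9, chromosome 5, 120431699 to 120441223), which is needed for the hem and for early forebrain and spinal neurons, had 47 and 93 counts in the WT and 3 and 6 in the *Zfp57*-/- libraries. It changed by -3.93 on the log2 scale (standard error 0.58, edgeR adjusted p = 0.000905). The counts are low, and the 95% interval from -5.23 to -2.64 is correspondingly wide.

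*Lhx1* (ENSMUSG00000018698.15, chromosome 11, 84518284 to 84525535), the closest relative of *Lhx5* and a factor of the early organiser, the kidney and several neuron classes, stood at 12.6 and 11.3 CPM in the WT and at 13.4 and 18.9 CPM in the *Zfp57*-/- libraries, or 11.9 ± 0.965 against 16.2 ± 3.88 CPM (SD, n = 2 each). The libraries did not overlap, though the gap was smaller than the spread in the *Zfp57*-/- cells. The log2 fold change of 0.44 had a 95% interval from -0.18 to 1.06 (edgeR adjusted p = 0.274), which leaves room for no change and for a rise of up to 2.08-fold, and it turned to -0.27 with *Actb* as the scale, which is 0.41 above the median of all genes on that scale.

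There were 706 and 555 *Lhx9* counts per 100 *Lhx1* counts in the WT libraries, against 10.4 and 5.41 in the *Zfp57*-/- libraries. *Lhx5* counts per 100 *Lhx1* counts were 46.1 and 78.8 in the WT, against 2.40 and 3.24. In RPKM, *Lhx1* made up 21.2% and 21.9% of the LIM trio in the WT and 92.5% and 93.3% in the *Zfp57*-/- libraries. Genes of the kidney and intermediate mesoderm, where *Lhx1* also acts, were few in counts: their 6 genes summed to 16.8 and 18.3 CPM in the WT and 18.3 and 24.0 in the *Zfp57*-/- libraries, with 2 lower (*Pax2* and *Pax8*) and 2 higher (*Wt1* and *Gata3*). In DESeq2, and without either *Zfp57*-/- library, 0 were lower and 0 higher. *Pax2* and *Pax8* were named after their values were seen, and the part of such cells in the *Lhx1* level was not tested.

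*Reln* (ENSMUSG00000042453.14, chromosome 5, 21884454 to 22344702), which encodes Reelin, had the highest count of the group in WT replicate 1 and the widest spread between WT cultures. It had 3269 and 943 counts in the WT and 38 and 48 in the *Zfp57*-/- libraries. The level was 404.5 and 90.0 CPM in the WT, against 4.08 and 4.90 CPM in the *Zfp57*-/- libraries. Both WT values were far above both *Zfp57*-/- values, and the log2 fold change was -5.78 (standard error 0.76, 95% interval -7.57 to -3.98, edgeR adjusted p = 0.0017). Without a filter on low counts, the same fold change no longer passed (edgeR adjusted p = 0.161).

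The 4.50-fold difference of *Reln* between the WT cultures placed it at the 98.5th percentile of all genes tested for the ratio of WT replicate 1 to replicate 2. *Trp73*, at few counts, was 3.03-fold higher in WT replicate 1 as well, and *Ebf1*, *Ebf2* and *Lhx9* were 1.18-, 1.20- and 1.43-fold higher there, whereas *Calb2* and *Lhx5* were 2.05- and 1.53-fold higher in replicate 2. The pan-neuronal genes summed to less in WT replicate 1 (1874 against 2495 CPM) and the 6 mesenchymal genes to more (533 against 388 CPM). The part of either in the *Reln* level was not tested. Without WT replicate 1, the log2 fold change of *Reln* was -4.34, and without WT replicate 2 it was -6.48.

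*Calb2* (ENSMUSG00000003657.9, chromosome 8, 110137502 to 110168210) encodes calretinin, a calcium-binding protein of Cajal-Retzius cells and of some interneurons. It had 26 and 69 counts in the WT and 6 and 12 in the *Zfp57*-/- libraries. It changed by -2.38 (log2, standard error 0.62, edgeR adjusted p = 0.0183). Without *Zfp57*-/- replicate 1 the change was -1.99 and no longer passed the test (edgeR adjusted p = 0.166). The groups did not overlap, but the adjusted p was the largest of the 7 genes that fell.

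*Trp73* (ENSMUSG00000029026.16, chromosome 4, 154056253 to 154140208), a relative of p53, had 14 and 6 counts in the WT and 34 and 15 in the *Zfp57*-/- libraries. The level was 1.15 ± 0.82 CPM in the WT and 2.59 ± 1.50 CPM in *Zfp57*-/- cells (SD, n = 2 each), and the libraries of the genotypes overlapped in CPM. The log2 fold change was 1.19, with a 95% interval from -0.46 to 2.84 (edgeR adjusted p = 0.262). Without WT replicate 1 it passed the test, with a log2 fold change of 2.12 (edgeR adjusted p = 0.0147). The lone WT library is then assumed to vary like the *Zfp57*-/- cultures, whose differences relative to counting noise were smaller (6.97 per gene, against 34.7 between the WT cultures).

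Ordered by RPKM in the WT cells, *Ebf3* (14.5 ± 0.783) led, followed by *Ebf2* (12.1 ± 1.55), *Reln* (10.4 ± 9.37), *Ebf1* (10.1 ± 1.15) and *Lhx9* (7.98 ± 1.98), all as mean ± SD of n = 2. Then came *Lhx1* (2.93 ± 0.237), *Calb2* (2.81 ± 1.37) and *Lhx5* (2.73 ± 0.804), and *Trp73* (0.208 ± 0.148) was last. The libraries of *Lhx1*, *Calb2* and *Lhx5* overlapped, as did those of *Ebf1* and *Lhx9*, and those of *Reln* overlapped with *Ebf1*, *Ebf2*, *Ebf3* and *Lhx9*. In the *Zfp57*-/- cells the order was *Lhx1* (3.97 ± 0.953), *Ebf2* (2.87 ± 0.174), *Ebf1* (0.906 ± 0.0369), *Ebf3* (0.762 ± 0.174), *Calb2* (0.536 ± 0.236), *Trp73* (0.468 ± 0.27), *Reln* (0.189 ± 0.0246), *Lhx5* (0.174 ± 0.0765) and *Lhx9* (0.127 ± 0.0278). *Lhx1* and *Ebf2* stood apart from the rest and from each other, while *Ebf1* overlapped with *Ebf3*, *Ebf3* with *Calb2* and *Trp73*, *Calb2* with *Trp73*, and *Lhx5* with *Reln* and *Lhx9*.

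Since neuronal RNA as a whole was lower in the *Zfp57*-/- libraries, the 9 genes were also compared per summed pan-neuronal count. On this scale the median over all genes was 2.91, with 1.33% of all genes lower and 81.1% higher. Against the neuronal sum, *Lhx9* (log2 fold change -3.10, edgeR adjusted p = 1.76e-10), *Reln* (-2.98, 0.000732) and *Ebf3* (-1.31, 0.00028) were lower, 3 of the 9 genes. *Ebf1* (-0.56, edgeR adjusted p = 0.122) and *Lhx5* (-0.98, edgeR adjusted p = 0.291) did not pass the test.

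On the same scale *Ebf2* turned to 0.82 (edgeR adjusted p = 0.0145), higher per neuronal count, which is -2.09 relative to the median of all genes there. *Calb2* turned to 0.62, which did not pass the test (edgeR adjusted p = 0.483) and was -2.29 relative to that median. *Lhx1* (3.38) and *Trp73* (3.99) were higher and lay 0.47 and 1.08 above it. *Stmn2*, which did not pass the test on the TMM scale, gave 758 of 15148 and 1561 of 26155 counts of the neuronal sum in the WT, but 902 of 2901 and 671 of 2528 in the *Zfp57*-/- libraries, so that the make-up of the scale differed between genotypes. The 12 pan-neuronal genes themselves had log2 fold changes from -6.42 (*Dcx*) to -0.56 (*Stmn2*) on the TMM scale, so that the scale stands for no single neuronal gene. *Dcx* and *Stmn2* were named after their values were seen.

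**Figure D3:**
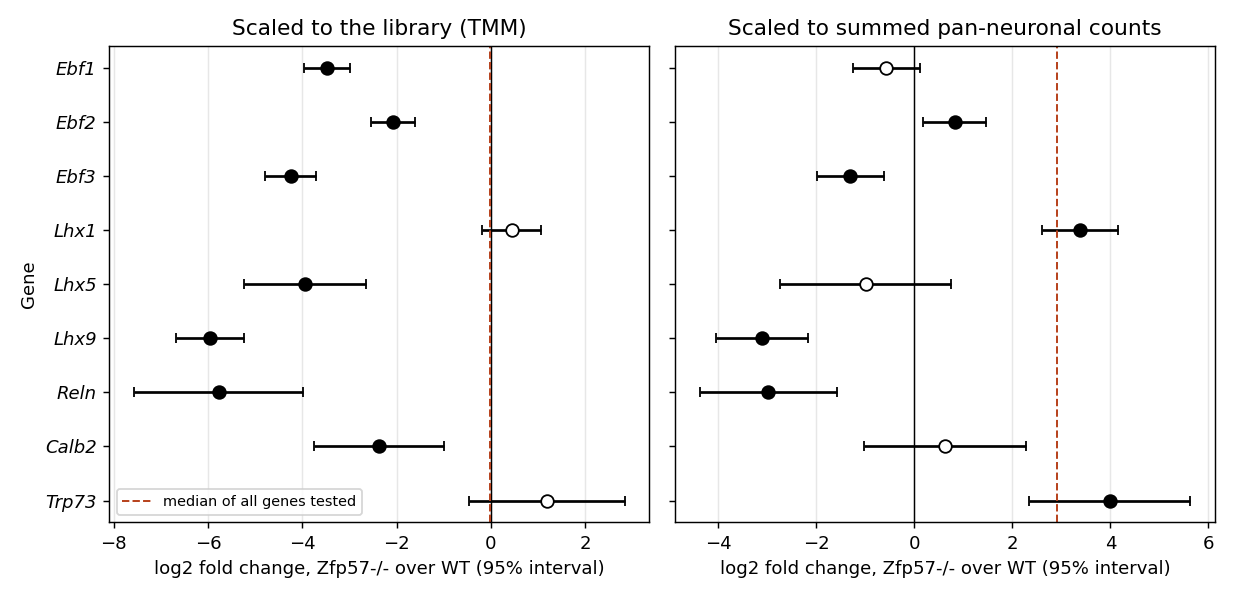
Log2 fold changes of the 9 genes, *Zfp57*-/- over WT, with 95% intervals, on the TMM scale (left) and per summed pan-neuronal count (right), where filled points passed an adjusted p of 0.05 and the dashed line is the median of all genes tested. On the left 7 genes lie below 0 and past the test, and on the right only *Ebf3*, *Lhx9* and *Reln* do.

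The allele-specific table was used to ask whether both parental copies of each gene fell. Reads that overlap a SNP between the strains were counted as JF1 (maternal) or B6 (paternal), 2837013 to 3826604 in a library, and the allelic ratio is the JF1 share. The test needed at least 10 allelic reads in each WT library, which 7 of the 9 genes had. *Calb2* had 0 allelic reads in all libraries, and *Trp73* had 10 and 3 in the WT libraries. Intervals on ratios cover counting error only.

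In the WT cells the ratios lay near 0.5. *Reln* was the most deeply covered, with 1677 and 459 reads and ratios of 0.548 and 0.553. It was the only 1 of the 7 genes with an allele difference in WT cells (log2 of JF1 over B6 0.29, standard error 0.10, edgeR adjusted p = 0.022), where 23.4% of 11079 genes had such a difference. The call was lost in DESeq2 and when either WT library was left out, and the 15 nearest genes that had 10 or more allelic reads throughout the 4 libraries had a median WT ratio of 0.534.

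The other 6 genes gave WT mean ratios (SD, n = 2) of 0.471 ± 0.0105 for *Ebf1*, 0.512 ± 0.0512 for *Ebf2*, 0.507 ± 0.00197 for *Ebf3*, 0.478 ± 0.0628 for *Lhx1*, 0.445 ± 0.0635 for *Lhx5* and 0.520 ± 0.0111 for *Lhx9*. Their reads in the 2 WT libraries together ranged from 64 for *Lhx5* to 746 for *Ebf2*. None of these passed the test of an allele difference.

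In the *Zfp57*-/- cells allelic reads were fewer for each of the 6 genes that fell and could be tested. *Ebf2* had 86 and 79 reads with ratios of 0.430 and 0.443, *Lhx1* had 66 and 71 with ratios of 0.364 and 0.493, and *Ebf1* had 24 and 34 with ratios of 0.458 and 0.529. *Reln* had 21 and 29 reads, with ratios of 0.333 and 0.483, and *Ebf3* had 14 and 9, with ratios of 0.214 and 0.444. The 95% Wilson intervals of the pooled *Zfp57*-/- ratios contained 0.5 for each of these 5 genes, and for *Ebf3* the interval ran from 0.156 to 0.509. An allele difference in *Zfp57*-/- cells was called for 0 of 7 genes, against 21.8% of all genes (0 at an unadjusted p of 0.05 in edgeR, 0 in DESeq2).

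The change of the allelic ratio between genotypes was called for 0 of 7 genes as well, against 14.3% of all genes (edgeR, 0 at an unadjusted p of 0.05, 0 in DESeq2). The 95% interval of the difference in log2 of JF1 over B6 ran from -1.01 to 0.14 for *Ebf2*, from -0.67 to 1.01 for *Ebf1*, from -1.58 to 0.08 for *Reln* and from -2.54 to 0.15 for *Ebf3*. Shifts of the allelic ratio within these bounds were not detectable at this depth.

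**Figure D4:**
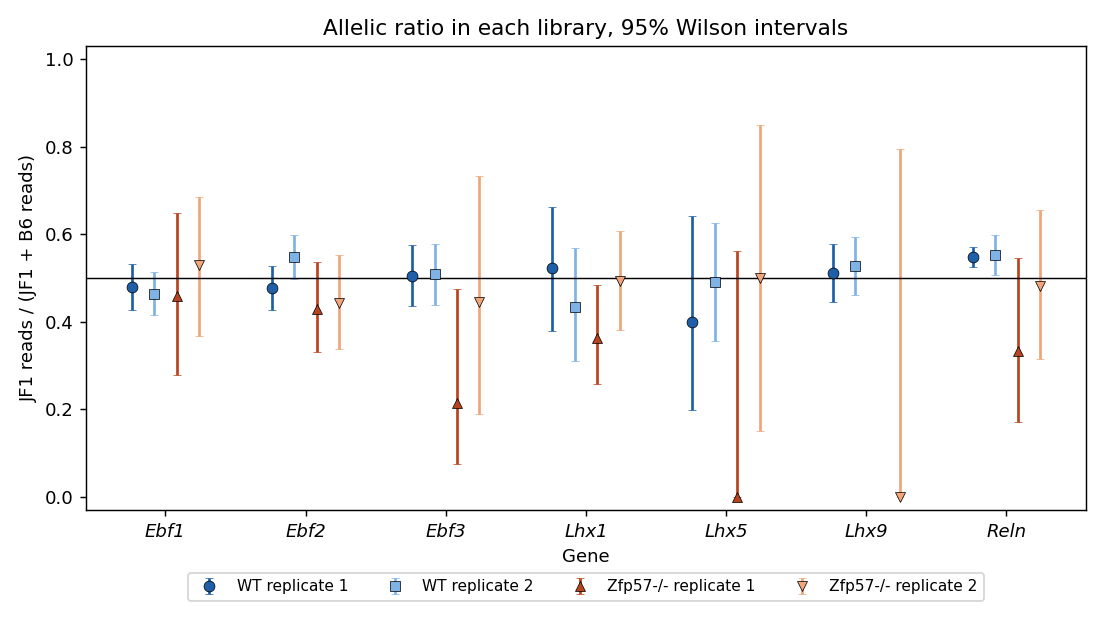
Allelic ratio (JF1 reads over JF1 plus B6 reads) of the 7 genes tested, for each library with reads, with 95% Wilson intervals. The WT points lie between 0.40 and 0.553, and the intervals of the *Zfp57*-/- points are wide and rest on 1 to 86 reads.

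Both alleles went down in the 6 genes that fell and could be tested, while *Calb2* had no allelic reads. On the B6 allele 6 of 7 genes were lower in *Zfp57*-/- cells, against 15.7% of all genes, and on the JF1 allele 6 of 7 were lower, against 18.1% of all genes (edgeR, adjusted over 11079 genes). Genes entered this test by their WT reads alone, which favours genes that are lower in *Zfp57*-/- cells. The counts of lower genes are thus partly set by the filter. *Trp73*, with 10 and 3 allelic reads in the WT and 22 and 9 in the *Zfp57*-/- libraries, did not enter. *Lhx1* passed on neither. This fit had no term for the library and took the 2 alleles of a library as independent, so its p-values may be too small. *Ebf1* changed by -3.80 on the B6 and -3.64 on the JF1 allele on the log2 scale, *Ebf2* by -2.04 and -2.45, *Ebf3* by -3.60 and -4.81, and *Reln* by -5.20 and -5.95.

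*Lhx9* had 223 JF1 reads in the WT libraries together and 0 in the *Zfp57*-/- libraries, at least 83.0-fold lower per allelic read against 3 reads over the group, and 206 B6 reads against 1, a ratio of 230.1 with a 95% counting interval from 40.8 to 9132. *Lhx5* had 30 JF1 reads against 2 (16.8-fold, 4.25 to 145) and 34 B6 reads against 5 (7.60-fold, 2.96 to 24.9). The fall of *Lhx9* and *Lhx5* was thus seen on each parental copy as far as the reads allow.

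The chromosomal surroundings of *Lhx9* and *Calb2* differed from those of the other genes in their allelic ratios. Over the autosomes, the median ratio per chromosome ranged from 0.483 to 0.517 in WT cells. In *Zfp57*-/- cells it was 0.620 on chromosome 1, which holds *Lhx9*, and 0.477 to 0.493 on the others. The 15 informative genes nearest to *Lhx9* had a median ratio of 0.490 in the WT and 0.660 in *Zfp57*-/- cells. Bulk log2 fold changes on chromosome 1 had a median of 0.13. On the other chromosomes that hold these genes the median ran from -0.09 (chromosome 5) to 0.11 (chromosome 11). *Lhx9* itself had a log2 fold change of -5.96 on the TMM scale, next to -5.78 for *Reln* on chromosome 5.

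Of the 15 informative genes nearest to *Calb2*, up to 9.99 Mb away, 8 had a WT ratio of at least 0.95, and their median was 1 in the WT and 0.503 in *Zfp57*-/- cells. Among them, *Cdh1* had 0 B6 reads of 140 and 169 in the WT libraries, whereas 295 of 623 and 413 of 796 reads were JF1 in the *Zfp57*-/- libraries. In WT cells, 0 of 309 *Cdh1* reads were B6, which allows a B6 share of up to 0.971%. *Cdh1* was named after its values were seen. All 8 lie on the side of *Calb2* with lower coordinates, and the nearest informative genes on the other side had B6 reads in the WT (*Wwox*, ratio 0.505, and *Cenpn*, ratio 0.604, also named after their values were seen). *Calb2* lies between these stretches, and which of them it belongs to cannot be read, since it had no allelic reads. The part of either pattern in the levels of *Lhx9* and *Calb2* was not tested.

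Transcripts beside or opposite the 9 genes were examined because counts were assigned by strand. GENCODE places 22 other genes within 3 kb of the group, 19 of them on the opposite strand. Of these 19, 3 passed the filter and none passed the test of a difference between genotypes (edgeR; 0 lower and 0 higher). *Lhx1os*, which lies head to head with *Lhx1*, had 18 and 31 counts in the WT and 11 and 16 in the *Zfp57*-/- libraries (log2 fold change -0.88, edgeR adjusted p = 0.293). *Trp73os*, which overlaps *Trp73*, had 0 and 0 counts in the WT and 4 and 4 in the *Zfp57*-/- libraries.

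The genes are otherwise unlike in structure. They lie on 7 chromosomes, and their spans run from 7.25 kb for *Lhx1* and 9.53 kb for *Lhx5* to 390.8 kb for *Ebf1* and 460.2 kb for *Reln*. Annotated transcripts range from 1 for *Lhx5* to 15 for *Reln*. The counts do not separate the transcripts of a gene.

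Genes related by role were read from lists, and their counts of called genes stand beside 14.6% lower and 13% higher among all genes tested. Among 13 measured other genes of Cajal-Retzius and early-born neurons, 11 were lower and 1 was higher (median log2 fold change -2.71, all genes -0.01). *Nhlh2*, a helix-loop-helix factor of newborn neurons, had 901 and 1240 counts in the WT and 9 and 13 in the *Zfp57*-/- libraries (log2 fold change -6.63, edgeR adjusted p = 1.69e-06). *Nr2f2*, a nuclear receptor, changed by -2.35, and *Cxcr4*, the chemokine receptor that Cajal-Retzius cells use to migrate under the meninges, by -1.22. *Eomes*, the member that rose, had 13 and 7 counts in the WT and 329 and 433 in the *Zfp57*-/- libraries (log2 fold change 5.17, edgeR adjusted p = 1.4e-05). *Eomes*, named after its values were seen, is also known as a gene of early mesendoderm, and of the 10 mesendoderm and endoderm genes 4 were higher (T, *Mixl1*, *Gsc* and *Cer1*) and 0 lower, while the most abundant, *Gata4* (0.66), *Sox17* (0.57) and *Gata6* (0.38), did not pass the test, with sums of 338 and 522 CPM in the WT and 571 and 760 in the *Zfp57*-/- libraries. With *Actb* as the scale 2 were higher and 1 lower, and 8 were higher without WT replicate 2. The part of such cells in the *Eomes* level was not tested.

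Of 11 measured genes of the regions that give rise to Cajal-Retzius cells, 5 were lower and 0 higher (median -2.24). *Rspo1*, *Rspo3*, *Wnt3a*, *Dbx1* and *Gdf7* were those that fell, the last 3 named after their values were seen. *Rspo3* changed from 67.1 and 50.2 to 12.1 and 12.7 CPM (log2 fold change -2.24) and *Rspo1* by -3.67. Both amplify Wnt signals and mark the hem, as well as the roof plate elsewhere. *Lmx1a*, a LIM factor of the hem and the roof plate, had 258 and 268 counts in the WT and 137 and 222 in the *Zfp57*-/- libraries and did not pass the test (log2 fold change -0.62, edgeR adjusted p = 0.113).

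EBF and LIM relatives and cofactors were mostly lower, 12 of the 16 tested with 1 higher (median -2.00). *Zfp521*, a zinc finger partner of EBF factors, changed by -2.17 and its counts of 1287 and 1389 in the WT exceeded the 303 and 314 of the *Zfp57*-/- libraries. *Ssbp3*, a cofactor of LIM complexes, did not pass the test (-0.45, edgeR adjusted p = 0.15). *Rlim*, a ubiquitin ligase that acts on LIM cofactors, was higher (0.80, edgeR adjusted p = 0.0115), a call that was absent with *Actb* as the scale, on which 12 of the list were lower and 0 higher, and without either *Zfp57*-/- library.

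The genes that receive the Reelin signal changed less than *Reln*. Of 12, 5 were lower and 0 higher, and the median was -0.42. The lower count was 2 without *Zfp57*-/- replicate 1, 1 without *Zfp57*-/- replicate 2 and 9 without WT replicate 1. *Pafah1b1* (-0.24, edgeR adjusted p = 0.359) and *Crk* (-0.03, edgeR adjusted p = 0.946), which act inside the cell, did not pass the test, while *Pafah1b2* was lower (-0.78, edgeR adjusted p = 0.0231). Among the receptors, *Vldlr* had 1797 and 1150 counts in the WT and 210 and 232 in the *Zfp57*-/- libraries (-2.84, edgeR adjusted p = 0.000169), and *Lrp8* had 649 and 725 against 390 and 534 (-0.63, edgeR adjusted p = 0.0483). *Dab1* and *Fyn*, which relay the signal, were the other two that were lower (-0.76 and -1.12). The receptors, *Dab1* and *Fyn* were named after their values were seen.

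Of 9 measured genes of the p53 family and its targets, to which *Trp73* belongs, 0 were lower and 4 higher (median 0.70), and with *Actb* as the scale none were called. Without *Zfp57*-/- replicate 1, 2 were higher, and without either WT library 7 were. *Mdm2*, the p53 ubiquitin ligase, was higher by 1.19 (edgeR adjusted p = 0.00145), as were *Trp53* (1.26), *Bax* (1.01) and *Bbc3* (0.95), which were named after their values were seen, while *Ccng1* (0.70, edgeR adjusted p = 0.0515) and *Mdm4* (0.67, edgeR adjusted p = 0.106) did not pass. Of 9 measured genes for calcium-binding proteins and transmitter identity, beside *Calb2*, 4 were lower and 1 higher (median -2.79). *Slc17a6*, the glutamate transporter VGLUT2, had 386 and 341 counts in the WT and 1 and 1 in the *Zfp57*-/- libraries. *Sst*, the peptide somatostatin, had 47 and 105 against 5 and 0, and *Calb1*, the calbindin relative of *Calb2*, was higher, with 16 and 16 against 80 and 88 (log2 fold change 2.33, edgeR adjusted p = 0.00286), a call that was absent with *Actb* as the scale. The GABA synthesis gene *Gad2* (-3.71) and *Slc17a8*, with 15 and 4 against 0 and 0 counts, were the other lower genes and were named after their values were seen.

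**Figure D5:**
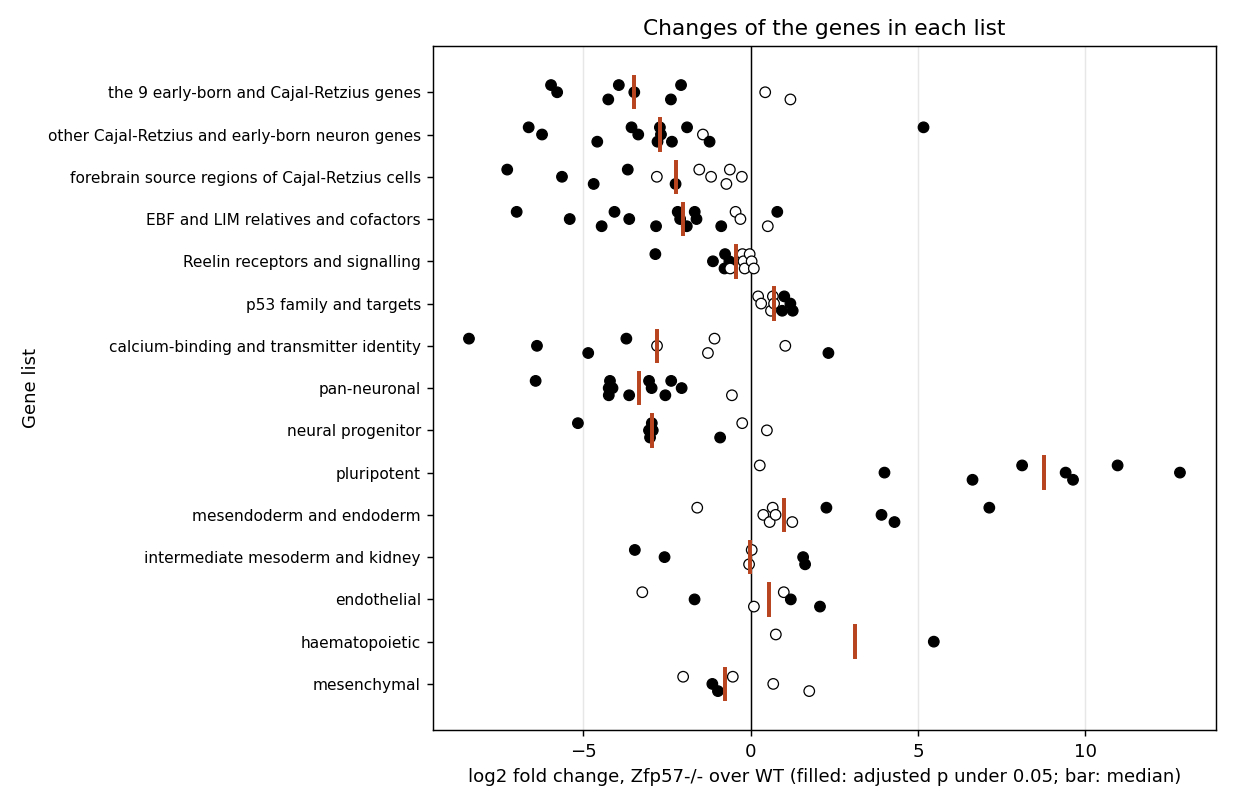
Log2 fold changes, *Zfp57*-/- over WT on the TMM scale, of each tested gene in the group of 9 and in 14 related lists, where filled points passed an adjusted p of 0.05 and bars mark the median of a list. The medians of the 9 genes (-3.47) and the pan-neuronal list (-3.33) lie on the left, and that of the pluripotency list (8.76) on the right.

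Cells outside the brain also use some of these genes, and their markers were read beside them. Among all genes tested 14.6% were lower and 13% higher, and whether these short lists differed from those shares was not tested. Of 6 endothelial genes 1 was lower (*Kdr*, -1.67) and 2 were higher (*Tek*, 1.20, and *Pecam1*, 2.07), and *Cdh5* (0.10) did not pass the test, with sums of 93.2 and 113 CPM in the WT and 112 and 133 in the *Zfp57*-/- libraries. With *Actb* as the scale 0 of them were higher, and without either *Zfp57*-/- library 1 was. Of 6 haematopoietic genes, which include markers of the B cells that need *Ebf1*, the sum was at most 1.82 CPM in any library and of the 2 tested *Gata1* was higher (0, 0, 6 and 5 counts) and *Cd79a* was not. The *Gata1* call was absent in DESeq2, with upper-quartile scaling, a stricter filter or *Actb* as the scale, and without any 1 of the 4 libraries. Of 6 mesenchymal genes 2 were lower (*Prrx1*, -0.97, and *Twist1*, -1.14) and 0 higher, *Pdgfra* (-0.53) and *Col1a1* (0.68) did not pass the test, with sums of 533 and 388 CPM in the WT and 293 and 368 in the *Zfp57*-/- libraries. Of the mesenchymal genes, 1 was lower without either *Zfp57*-/- library and 4 without WT replicate 2. *Pecam1* and *Twist1* were named after their values were seen.

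The genes whose profile over the 4 libraries was nearest to the median profile of the 9, among 13268 candidates with at least 100 counts, were *Dclk1*, *Brinp2*, *Msi1*, *Zcchc18* and *Nova2*. Their Euclidean distances in centred log2 CPM ran from 0.109 to 0.230, and *Ebf1*, the nearest of the group itself, was at 0.468. The neighbours were picked as the nearest of 13268 candidates, so these distances cannot be set against those within the small group. *Dclk1*, a relative of doublecortin that binds microtubules, had 799 and 1177 counts in the WT and 106 and 137 in the *Zfp57*-/- libraries. *Msi1*, an RNA-binding protein of neural progenitors, had 1033 and 1486 against 151 and 190.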

How the data were processed

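Total RNA of 2 WT and 2 *Zfp57*-/- cultures was sequenced as strand-specific read pairs after ribosomal RNA removal. According to the study's methods and the file headers, the authors used Trimmomatic 0.36 for trimming and STAR 2.5.4a for unique alignment to GRCm38, and counted fragments per GENCODE gene on the matching strand with featureCounts (Subread 1.6.0). The deposited values are raw counts. Allelic counts came from reads split by SNPsplit at strain SNPs after alignment to a masked genome.

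Here, genes whose counts added up to over 8 in the 4 libraries were compared with edgeR 4.0.16 in R 4.3.3 (TMM factors, robust quasi-likelihood test). Autosomal genes reaching 10 allelic reads in both WT libraries were tested for allele differences within libraries. The change of each allele was fitted with bulk library sizes and without a term for the library. DESeq2 1.42.0 was an alternative, as were other scalings and filters, a replicate block and each library left out. The scripts were tested on simulated data. Of the bulk identifiers, 53859 matched a symbol. Replicates are described as biological duplicates of a line. The 9 genes, the lists and the tests were chosen with earlier results of these data known. Of 141 list entries, 5 were not analysed here. Named genes are all 9, the 3 most abundant of each list discussed in detail, defining markers near 0, and those said to be named after their values were seen. Some genes that this rule selects are not reported here. Imprinted genes and methylation were not analysed here.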

Additional observations from a re-analysis of the deposited data

How the results depend on the processing

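Of the 108 alternative values of the 9 log2 fold changes, 98 kept their direction and their side of the threshold. Per summed pan-neuronal count, 3 of the 9 genes were lower and 3 higher, where the TMM scale gave 7 and 0, and *Ebf2* (0.82) and *Calb2* (0.62) turned positive. With *Actb* as the scale *Lhx1* turned to -0.27. With 1 library left out, 6 to 7 genes were lower and 0 to 1 higher. A lone library is there assumed to vary like the other genotype, although differences between cultures relative to counting noise were 34.7 per gene in the WT and 6.97 in *Zfp57*-/- cells, so that p-values without a WT library rest mainly on the closer *Zfp57*-/- cultures. An allele difference in WT cells, called for *Reln*, was called for 0 genes in DESeq2 and 0 to 1 with 1 library left out. In the replicate block fit, which uses a shared replicate number as a pair although the labels name no common batch, this count was also 0 (1 without it), while 7 genes stayed lower and 0 higher, and 97 genes of the related lists were called, against 82. The check of that number gave a correlation of 0.145 between the deviations that libraries of the same number had, over 10105 genes. Over all genes, the lower calls were 2915, and ranged from 1516 to 4893 with 1 library left out. The causes were not tested. Depth limits the allelic values of the *Zfp57*-/- cells, where the 7 genes had 1 to 165 reads each, and *Trp73* and *Calb2* in bulk.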
